A study of Mus musculus with 9 samples.

Results

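The genes described here take up vitamin A, bind it inside cells, oxidise it to retinoic acid, break retinoic acid down and read its signal. They were chosen by symbol, and all 9 were present among the 23420 genes of each count table: Stra6, Rbp4, Crabp1, Crabp2, Aldh1a1, Aldh1a2, Aldh1a3, Cyp26b1 and Rarb. They were measured by RNA-seq in whole ovaries of wild-type mouse embryos of the CD1 stock, collected at E16 and then kept for 24 hours on culture inserts in phenol red-free medium with insulin, transferrin, selenium and linoleic acid. The medium of 3 libraries held recombinant human BMP2 at 50 ng/ml, that of 3 libraries held estradiol-17β (E2) at 3.67 µM, and that of 3 libraries held vehicle. BMP2 is a secreted bone morphogenetic protein that signals through SMAD1 and SMAD5, and E2 is the main oestrogen. Treatments were read from the first letters of the library titles, with B2 taken as BMP2 and C as vehicle. Nothing in the labels ties the 3 libraries of a group to separate cultures or animals. A p-value here therefore reflects the spread among these libraries alone, and part of that spread may be technical. That spread was small, at a common coefficient of variation of 1.87% beyond counting noise, so small changes can reach low p-values.

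Retinol circulates bound to the carrier protein RBP4 and enters many cells through the membrane receptor STRA6. Retinol dehydrogenases oxidise it to retinaldehyde, and the retinaldehyde dehydrogenases ALDH1A1, ALDH1A2 and ALDH1A3 turn that into retinoic acid. CRABP1 and CRABP2 carry retinoic acid in the cytoplasm, CYP26 enzymes such as CYP26B1 degrade it, and the RAR receptors, RARB among them, bind it together with RXR partners on DNA. In the fetal gonad of the mouse this pathway is known for the gene Stra8, which retinoic acid induces in germ cells about to enter meiosis, and for CYP26B1, which shields germ cells of the testis from it.

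Gene counts summed to 30418674 to 34320077 per library. The tissue carried the marks of a fetal ovary: the 6 germ cell markers summed to 1134 to 1166 CPM (read counts relative to library size, scaled by TMM factors) with BMP2, 1161 to 1161 with E2 and 1068 to 1131 with vehicle, and the 4 Y-linked genes examined had 0 counts in every library. The 9 genes differed widely in depth, with totals over the 9 libraries of 134256 counts for Aldh1a1 and 60615 for Aldh1a2, but 659 for Cyp26b1 and 552 for Rbp4. All 9 passed the filter on low counts.

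Promoter windows from RefSeq (GRCm38.p6, 250 bases before a start annotated for the gene and 50 after it) were found for 7 of the 9 genes. Those of Rarb, Aldh1a2 and Crabp1 are printed, 5′ to 3′ on the gene's strand: Rarb because its window holds a known type of retinoic acid response element, and Aldh1a2 and Crabp1 because they had the largest rise and the largest fall with E2. In the Rarb window, on the minus strand at chr14:16575427-16575726, capitals mark 2 receptor hexamers in the same direction with 5 bases between them. This window belongs to a RefSeq transcript start inside the span of the gene given below, not to its outermost start. In the windows of Aldh1a2, at chr9:71215539-71215838, and Crabp1, at chr9:54764498-54764797, both on the plus strand, capitals mark GGCGCC, a GC-rich element that SMAD1 and SMAD5 can bind.
Rarb: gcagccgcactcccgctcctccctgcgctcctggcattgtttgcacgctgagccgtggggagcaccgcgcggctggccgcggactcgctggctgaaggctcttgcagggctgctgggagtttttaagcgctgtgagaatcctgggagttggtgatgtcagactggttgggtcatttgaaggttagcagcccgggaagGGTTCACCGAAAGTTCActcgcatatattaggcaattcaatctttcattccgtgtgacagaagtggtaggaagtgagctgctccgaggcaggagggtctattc
Aldh1a2: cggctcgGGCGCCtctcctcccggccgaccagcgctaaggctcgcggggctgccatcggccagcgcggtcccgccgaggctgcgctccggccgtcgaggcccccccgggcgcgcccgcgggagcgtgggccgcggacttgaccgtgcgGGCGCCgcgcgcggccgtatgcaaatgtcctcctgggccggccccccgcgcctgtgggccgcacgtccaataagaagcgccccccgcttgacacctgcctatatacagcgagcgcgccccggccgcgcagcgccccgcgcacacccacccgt
Crabp1: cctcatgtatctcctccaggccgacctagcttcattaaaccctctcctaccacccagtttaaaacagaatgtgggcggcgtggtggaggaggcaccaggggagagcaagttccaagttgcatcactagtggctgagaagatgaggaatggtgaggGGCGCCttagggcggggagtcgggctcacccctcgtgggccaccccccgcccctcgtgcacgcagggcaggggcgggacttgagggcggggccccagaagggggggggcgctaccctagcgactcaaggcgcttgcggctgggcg

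Retinoid receptor hexamers were searched on both strands as AGGTCA in its common form, as the variant AGTTCA, then as the variant GGGTCA, and last as the variant GGTTCA. A pair of them in the same direction spaced by 5 bases was present in 0.0974% of 32851 promoter windows. In Rarb the pair begins 53 bases before that internal start (base -53). The Rarb window was the only one of the 12 windows of these 7 genes with such a pair, and none of the 12 had a pair spaced by 1 base (0.222% of all windows) or by 2 bases (0.268%). The palindromic oestrogen response element GGTCANNNTGACC, whose ends overlap some of these hexamers, was found in 0.07% of all windows and in none of the 12. GGCGCC, which reads the same on both strands, was found in 11.9% of all windows, 1 time in that of Crabp1 and 2 times in that of Aldh1a2. The Aldh1a2 window stood out in composition, at 78% G and C with 50 CpG dinucleotides, against medians of 52.7% and 7 over all windows.

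Per kilobase of exon the synthesis enzyme genes Aldh1a1 and Aldh1a2 were the most abundant of the 9. With vehicle, Aldh1a1 averaged 98.4 ± 1.32 CPM per kb and Aldh1a2 82.0 ± 0.827 (SD, n = 3). Crabp1 followed at 8.44 ± 0.741, Stra6 at 5.75 ± 0.267, Crabp2 at 3.10 ± 0.277 and Aldh1a3 at 1.71 ± 0.109 CPM per kb. Rbp4 (1.36 ± 0.233), Rarb (0.783 ± 0.122) and Cyp26b1 (0.414 ± 0.0862) were lowest. In that order the vehicle libraries of Aldh1a3 and Rbp4 overlapped, and those of the other neighbours did not. With E2, Aldh1a2 stood above Aldh1a1, and the libraries of Stra6 and Crabp2 overlapped. Lengths were the union of a gene's annotated exons. With the longest transcript as the length, Stra6 rose above Crabp1 (10.9 ± 0.507 against 8.44 ± 0.741 CPM per kb with vehicle), so the order of these genes depends on the transcript used.

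With E2 the 3 retinaldehyde dehydrogenases went in different directions, and Stra6 and Crabp1 fell. Aldh1a2 was 1.41-fold higher and Aldh1a3 1.18-fold higher than with vehicle, while Crabp1 was 1.93-fold lower, Stra6 1.55-fold lower and Aldh1a1 1.27-fold lower. BMP2 changed less: Stra6 was 1.15-fold lower and Aldh1a2 1.05-fold lower than with vehicle. By edgeR's quasi-likelihood test, with p-values adjusted over all genes and called under 0.05, 5 of the 9 genes passed for E2 against vehicle (2 higher, 3 lower), where 32.3% of all 16360 genes tested did (15.8% higher, 16.5% lower). For BMP2 against vehicle 2 passed (both lower), where 13.7% of all genes did (6.84% higher, 6.85% lower). For BMP2 against E2 5 passed (4 higher with BMP2, 1 lower), where 28.2% of all genes did (14.1% higher, 14% lower). At a change of at least 1.5-fold as well, 2 passed for E2 against vehicle (4.35% of all genes), 0 for BMP2 against vehicle (0.905%) and 1 for BMP2 against E2 (4.05%). With this few genes these shares are a description and no test of the group. The median log2 fold change of the 9 was -0.079 for E2 against vehicle and 0.061 for BMP2 against vehicle, and that of all genes tested was -0.0026 and -0.0015. In whole ovaries fewer cells of a type and less RNA per cell cannot be told apart.

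**Figure D1:**
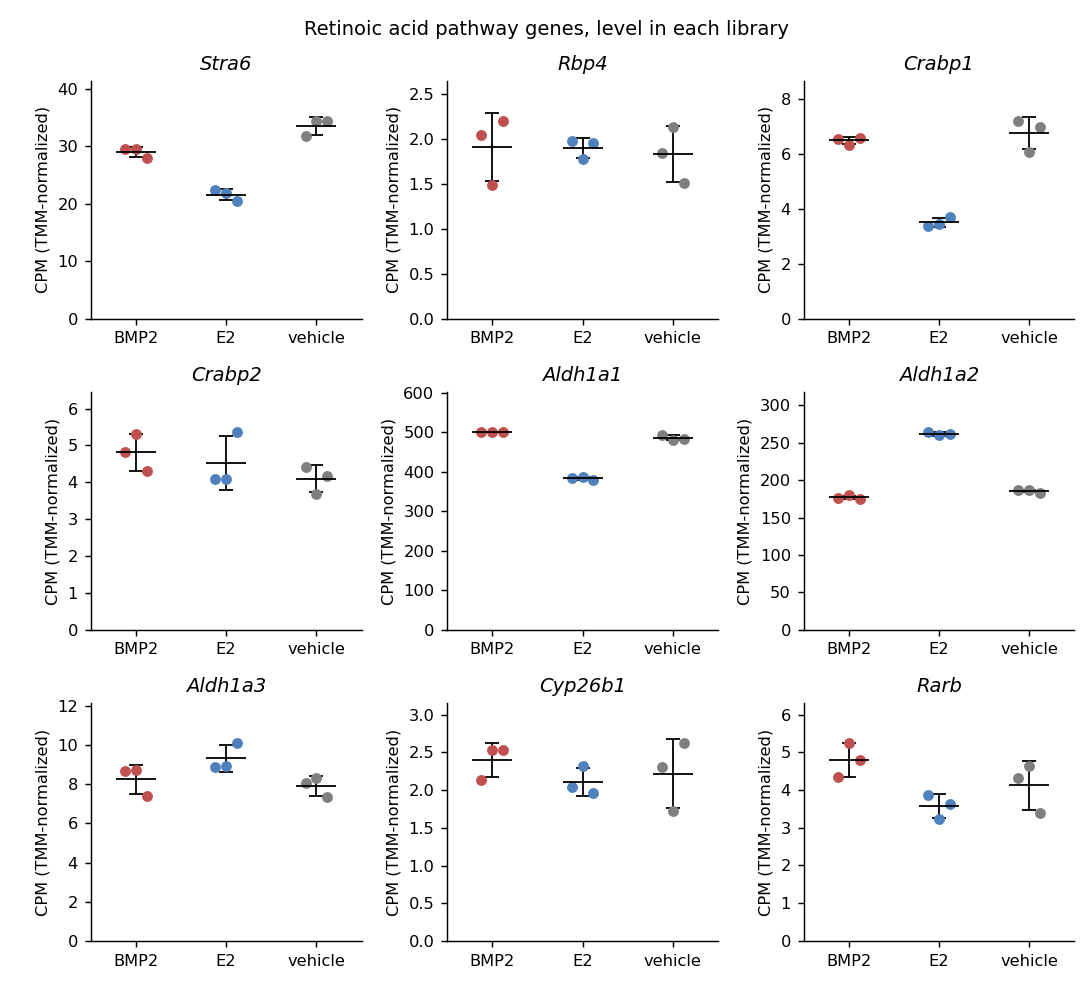
TMM-normalized CPM (vertical axes, linear from 0) of each of the 9 genes in the 3 BMP2, 3 E2 and 3 vehicle libraries (horizontal axes); points are libraries, bars the mean and SD. The E2 libraries of Stra6, Crabp1 and Aldh1a1 lie below all others and those of Aldh1a2 above all others, while the groups of Rbp4, Crabp2 and Cyp26b1 overlap.

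Stra6, the cell-surface retinol receptor, lies on chromosome 9 from 58063788 to 58153996 (GRCm38, plus strand). It stood at 29.5, 29.5 and 28.0 CPM with BMP2, at 22.4, 21.9 and 20.5 CPM with E2, and at 31.7, 34.4 and 34.5 CPM with vehicle. The 3 groups did not overlap, with E2 lowest and BMP2 between E2 and vehicle. Its log2 fold change was -0.63 ± 0.050 (SE) for E2 against vehicle (adjusted p = 2.1e-23) and -0.21 ± 0.047 for BMP2 against vehicle (adjusted p = 4.3e-04). The direct comparison of BMP2 with E2 also passed, at 0.43 ± 0.050 (adjusted p = 9.3e-13). Against a minimum change of 1.2-fold, the difference between BMP2 and vehicle did not pass (adjusted p = 1).

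Rbp4, the plasma carrier of retinol, lies on chromosome 19 from 38116629 to 38125281 (minus strand) and was low in this tissue. Its libraries had 50 to 76 counts with BMP2, 56 to 62 with E2 and 49 to 66 with vehicle, which is 1.92 ± 0.377, 1.91 ± 0.111 and 1.83 ± 0.313 CPM (SD, n = 3 each). The groups overlapped. The log2 fold change against vehicle was 0.059 with E2, with a 95% interval of -0.30 to 0.41. With BMP2 it was 0.070, with an interval of -0.28 to 0.42. Changes within those bounds were not excluded by these counts. Liver and yolk sac, which make much RBP4, left little mark: their 6 markers summed to 3.25 to 3.54 CPM with BMP2, 3.69 to 3.78 with E2 and 2.89 to 3.83 with vehicle.

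Crabp1 and Crabp2 encode the pair of cytoplasmic retinoic acid binding proteins, and of these Crabp1 passed with E2. Crabp1 (chromosome 9 from 54764748 to 54773110, plus strand) stood at 6.56, 6.35 and 6.59 CPM with BMP2, at 3.40, 3.46 and 3.70 CPM with E2, and at 7.22, 6.09 and 6.98 CPM with vehicle. All E2 libraries lay below all others, and the BMP2 and vehicle libraries overlapped. Its log2 fold change was -0.95 ± 0.11 for E2 against vehicle (adjusted p = 2.5e-13), the largest among the 9 genes, and 0.88 ± 0.11 for BMP2 against E2 (adjusted p = 5.6e-12). For BMP2 against vehicle it was -0.060 ± 0.095 and did not pass (adjusted p = 0.753).

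Crabp2 (chromosome 3 from 87948666 to 87953376, plus strand) stood at 4.83, 5.31 and 4.30 CPM with BMP2, at 4.09, 4.10 and 5.37 CPM with E2, and at 4.42, 3.70 and 4.17 CPM with vehicle. The groups overlapped in all 3 comparisons, and 1 E2 library lay above the other two. Its log2 fold change against vehicle was 0.23 ± 0.12 with BMP2 (adjusted p = 0.194) and 0.14 ± 0.12 with E2 (adjusted p = 0.397). The 95% interval for E2 was -0.094 to 0.37, which lies apart from the interval of -1.16 to -0.73 for Crabp1, although the difference between the 2 genes was not tested.

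Aldh1a1, an enzyme that makes retinoic acid, lies on chromosome 19 from 20492715 to 20643465 (plus strand). It stood at 501, 500.2 and 499 CPM with BMP2, at 385, 386 and 379.6 CPM with E2, and at 493, 481 and 483 CPM with vehicle. The E2 libraries lay well below the others and did not overlap them, and all BMP2 libraries lay slightly above all vehicle libraries. The log2 fold change was -0.34 ± 0.019 for E2 against vehicle (adjusted p = 7.0e-37) and 0.38 ± 0.019 for BMP2 against E2 (adjusted p = 5.6e-42). For BMP2 against vehicle it was 0.041 ± 0.018 (adjusted p = 0.125) and did not pass. Of its longest transcript, 6.54% of 50-base stretches also occur in Aldh1a7, its close paralog. A read lying wholly within such a stretch could not be placed with certainty. How many reads this affects depends on their length and was not tested. Aldh1a7 itself stood at 28.5 ± 1.46 CPM with BMP2, 19.6 ± 1.04 with E2 and 26.7 ± 0.0720 with vehicle, and was also lower with E2 than with vehicle (log2 fold change -0.44 ± 0.053, adjusted p = 1.2e-12).

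Aldh1a2, the main retinoic acid synthesis enzyme of the early mouse embryo, lies on chromosome 9 from 71215789 to 71296243 (plus strand). It stood at 176, 179.6 and 175 CPM with BMP2, at 265, 260.0 and 261 CPM with E2, and at 186, 187 and 183 CPM with vehicle. The E2 libraries were the highest and the BMP2 libraries the lowest, with no overlap between any groups. The fitted log2 fold change was 0.50 ± 0.021 for E2 against vehicle (adjusted p = 2.4e-47), number 63 of 16360 genes by p-value, and -0.57 ± 0.021 for BMP2 against E2 (adjusted p = 1.3e-53). For BMP2 against vehicle it was -0.069 ± 0.022 (adjusted p = 0.0211). That small difference lost its call when BMP2 replicate 1 (adjusted p = 0.0927), BMP2 replicate 3 (0.101), vehicle replicate 1 (0.0847) or vehicle replicate 2 (0.0737) was left out.

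Aldh1a3, the third enzyme of the group, lies on chromosome 7 from 66390890 to 66427517 (minus strand) and was far less abundant. It stood at 8.67, 8.71 and 7.38 CPM with BMP2, at 8.91, 8.95 and 10.1 CPM with E2, and at 8.04, 8.33 and 7.35 CPM with vehicle. The E2 libraries lay above all others, and BMP2 and vehicle overlapped. Aldh1a3 had a log2 fold change of 0.24 ± 0.085 for E2 against vehicle (adjusted p = 0.0207), but DESeq2 gave adjusted p = 0.0871, and the call was also lost without E2 replicate 3 (0.165) and without vehicle replicate 3 (0.117). It did not pass for BMP2 against vehicle (0.061 ± 0.085, adjusted p = 0.717) or BMP2 against E2 (-0.18 ± 0.083, adjusted p = 0.101).

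Set against each other per kilobase within each library, Aldh1a1 made up 56.0%, 55.5% and 56.1% of the sum of the 3 enzymes with BMP2, 39.6%, 40.1% and 39.5% with E2, and 54.3%, 53.6% and 54.2% with vehicle. Aldh1a2 made up 43.1 ± 0.287% with BMP2, 59.2 ± 0.281% with E2 and 45.0 ± 0.348% with vehicle (SD, n = 3), and Aldh1a3 made up 0.986%, 1.03% and 0.941% in the same groups. The sum itself was 181 ± 1.26 CPM per kb with BMP2, 195 ± 1.2 with E2 and 182 ± 1.76 with vehicle. With union-exon lengths Aldh1a2 was thus the more abundant of the pair with E2 and Aldh1a1 with BMP2 and vehicle. With the longest transcript as the length, Aldh1a1 was the more abundant in all groups (57.9 ± 0.331% with E2 and 71.0 ± 0.328% with vehicle), and the sum was lower with E2 than with vehicle (281 ± 1.71 against 290 ± 3.10 CPM per kb). The order of the 2 genes under E2 and the direction of the sum therefore depend on the length used. The lower Aldh1a1 share with E2 follows from lower Aldh1a1 and higher Aldh1a2 and Aldh1a3 at any fixed lengths. Finding it with both lengths adds no separate evidence.

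**Figure D2:**
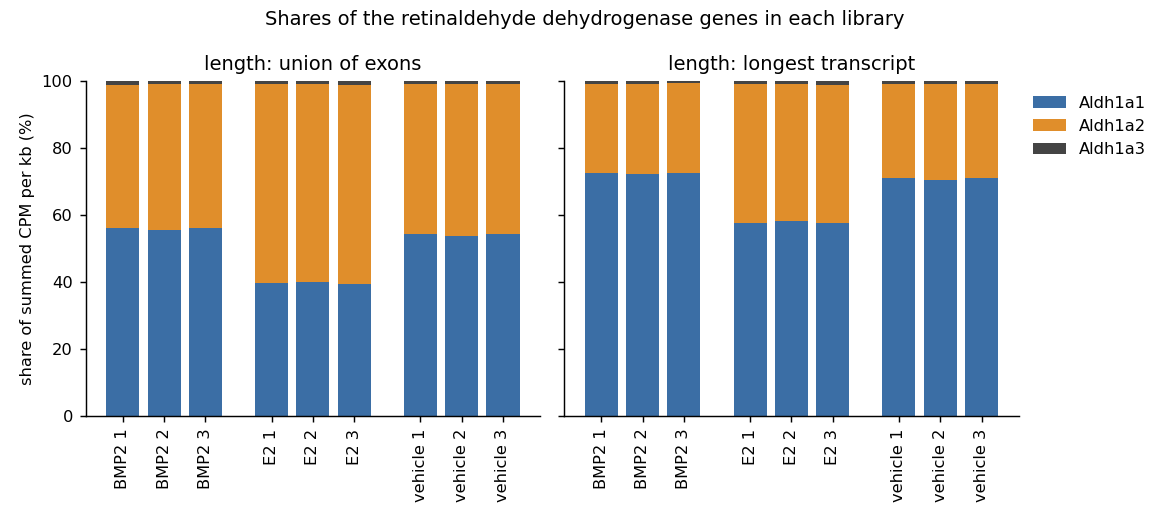
Share (vertical axes, percent) of Aldh1a1, Aldh1a2 and Aldh1a3 in their summed CPM per kb in each of the 9 libraries (bars, grouped as BMP2, E2 and vehicle), with the union of exons (left) or the longest transcript (right) as gene length. In the left panel Aldh1a1 takes 39.5% to 40.1% of the sum in E2 libraries and 53.6% to 54.3% in vehicle libraries; in both panels its share is lower with E2.

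Cyp26b1, the enzyme that degrades retinoic acid, lies on chromosome 6 from 84571414 to 84593908 (minus strand) and was the lowest of the 9 genes per kilobase in all groups. It had 73, 85 and 87 counts with BMP2, 62, 73 and 62 counts with E2, and 79, 53 and 85 counts with vehicle. These are 2.40 ± 0.227, 2.11 ± 0.187 and 2.22 ± 0.461 CPM (SD, n = 3 each), and the groups overlapped. The log2 fold change was -0.079 for E2 against vehicle, with a 95% interval of -0.41 to 0.25, and 0.11 for BMP2 against vehicle, with an interval of -0.20 to 0.42, and neither passed (adjusted p = 0.768 and 0.733). The related Cyp26a1 and Cyp26c1 did not pass the filter on low counts, at means of 0.0975 and 0.00976 CPM with BMP2, 0.130 and 0.0212 CPM with E2, and 0.0395 and 0 CPM with vehicle.

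Rarb, the receptor whose promoter element is printed in capitals above, lies on chromosome 14 from 16430839 to 16819156 (minus strand). It stood at 4.33, 5.25 and 4.79 CPM with BMP2, at 3.86, 3.24 and 3.63 CPM with E2, and at 4.33, 4.64 and 3.40 CPM with vehicle. The BMP2 libraries lay above all E2 libraries, while the vehicle libraries spanned both groups. BMP2 against E2 passed, with a log2 fold change of 0.42 ± 0.12 (adjusted p = 0.0034), and so it did with DESeq2 (adjusted p = 0.0334), but not against a minimum change of 1.2-fold (adjusted p = 0.386). Neither BMP2 (0.22 ± 0.12, adjusted p = 0.225) nor E2 (-0.20 ± 0.12, adjusted p = 0.217) passed against vehicle. Exons of Top2b on the opposite strand cover 34.1% of the exon bases of Rarb, and the library kit does not mark strand. Top2b stood at 258 CPM with BMP2, 264 with E2 and 264 with vehicle, and did not pass for BMP2 against E2 (log2 fold change -0.033, adjusted p = 0.240). Its part in the reads given to Rarb was not tested.

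**Figure D3:**
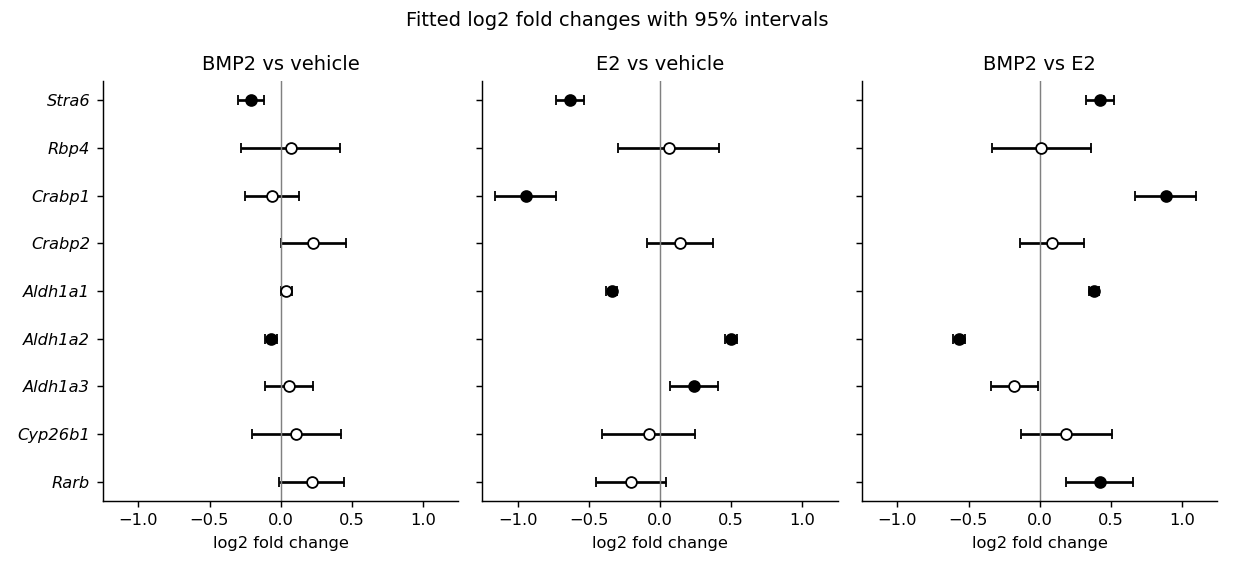
Fitted log2 fold changes (horizontal axes) of the 9 genes (rows) for BMP2 against vehicle, E2 against vehicle and BMP2 against E2; points are the estimates, bars their 95% intervals, and filled points passed at an adjusted p under 0.05. For E2 against vehicle the estimates run from -0.95 for Crabp1 to 0.50 for Aldh1a2.

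Markers of several ovarian cell types moved with the treatments as well. The surface epithelium and mesothelium had 7 of 7 markers lower with E2 than with vehicle and 7 of 7 lower with BMP2 than with vehicle. Among all genes tested 16.5% were lower with E2 and 6.85% with BMP2, while 15.8% and 6.84% were higher. Their summed level was 543 to 556 CPM with BMP2, 427 to 434 CPM with E2 and 621 to 646 CPM with vehicle. The 6 pregranulosa markers summed to 1592 to 1600 CPM with BMP2, 1363 to 1390 CPM with E2 and 1538 to 1593 CPM with vehicle. Of these, 2 were higher with E2, 2 lower and 2 did not pass, and 3 were higher with BMP2, 1 lower and 2 did not pass. The 6 stroma markers summed to 793 to 800 CPM with BMP2, 718 to 731 with E2 and 814 to 840 with vehicle. Of these, 3 were higher and 3 lower with E2, and 2 were lower with BMP2 and 4 did not pass. The stroma marker Nr2f2 is also among the retinoic acid targets counted below. None of these markers was at 0. The part of these shifts in the results for Stra6, Crabp1, Aldh1a1 and Aldh1a2 was not tested.

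Mesonephric tubules and ducts are a known source of retinoic acid next to the fetal gonad of the mouse. The 7 markers listed for them summed to 147 to 151 CPM with BMP2, 131 to 139 with E2 and 149 to 155 with vehicle. This sum alone does not show that the tissue was present. Of 6 tested, 2 were lower with E2 and 2 were lower with BMP2. Endothelial markers summed to 211 to 217, 206 to 219 and 208 to 215 CPM in the same groups. Of the 6, 5 were higher and 1 lower with E2, and 2 were higher with BMP2 and 4 did not pass. Markers of blood and macrophages summed to 71.8 to 76.1 CPM with BMP2, 62.8 to 67.9 with E2 and 71.9 to 74.9 with vehicle, with Hba-a1 at 0. Why Hba-a1 had no counts was not tested. Of 5 tested, 1 was higher and 2 were lower with E2, and 1 was higher with BMP2. The 5 markers of testis Sertoli cells summed to 13.2 to 14.5 CPM with BMP2, 11 to 12.1 with E2 and 15.2 to 16.8 with vehicle. Of the 5, 2 were lower with E2 and 1 was lower with BMP2.

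Among 36 other genes of retinoid uptake, storage, oxidation and breakdown, 25 were tested. With E2, 6 were lower, 2 were higher and 17 missed the threshold, which is 32% called against 32.3% of all genes; DESeq2 called 5. The retinol dehydrogenase genes Rdh1 and Rdh9 fell, by log2 fold changes of -0.78 ± 0.16 (adjusted p = 3.3e-05) and -0.49 ± 0.19 (adjusted p = 0.0395), on means of 1.86 and 1.38 CPM with E2 against 3.22 and 1.95 CPM with vehicle. The Rdh9 libraries of E2 and vehicle overlapped, and its call was lost with DESeq2 (adjusted p = 0.131) and without E2 replicate 1 (0.128), E2 replicate 3 (0.151), vehicle replicate 2 (0.0887) or vehicle replicate 3 (0.248). Cyp1b1, a cytochrome P450 that can oxidise steroids and retinoids, was lower at 80.5 ± 1.24 CPM with E2 against 98.7 ± 2.25 with vehicle (-0.29 ± 0.029, adjusted p = 1.4e-16). Lpl, a lipase that frees retinoids from lipoproteins, was higher at 119 ± 0.0716 CPM with E2 against 98.6 ± 1.99 with vehicle (0.27 ± 0.028, adjusted p = 2.7e-16). Rdh10, the main retinol dehydrogenase of the mouse embryo, fell slightly with E2 (log2 fold change -0.11 ± 0.039, adjusted p = 0.0225) and is named after its values were seen. Its call was lost with DESeq2 (adjusted p = 0.0709) and without E2 replicate 1 (0.150) or vehicle replicate 2 (0.0867).

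Dhrs3, which turns retinaldehyde back into retinol, was higher with both treatments. It stood at 59.5, 58.4 and 58.9 CPM with BMP2, at 65.6, 61.8 and 59.9 CPM with E2, and at 54.4, 53.0 and 53.6 CPM with vehicle. All treated libraries lay above all vehicle libraries, and the E2 and BMP2 comparisons share those vehicle libraries. Dhrs3 had log2 fold changes of 0.13 ± 0.035 with BMP2 (adjusted p = 0.0031) and 0.22 ± 0.035 with E2 (adjusted p = 1.0e-07). With BMP2, 2 of the 25 genes were higher, 1 was lower and 22 missed the threshold (12% called against 13.7% of all genes). The alcohol dehydrogenase gene Adh1 rose, to 11.8 ± 1.11 CPM with BMP2 against 9.56 ± 0.452 with vehicle (0.31 ± 0.076, adjusted p = 0.0015), a call that was lost when BMP2 replicate 3 was left out (adjusted p = 0.0589). Fabp5, whose product binds fatty acids and retinoic acid, fell to 24.3 ± 1.51 CPM with BMP2 against 28.9 ± 2.76 with vehicle (-0.25 ± 0.059, adjusted p = 0.0016), but DESeq2 did not call it (adjusted p = 0.101).

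Other retinoid receptors and their cofactors gave 10 tested genes, of which 2 were higher and 2 lower with E2 (40% called, against 32.3% of all genes); DESeq2 called 2 of them. Nrip1, a corepressor of nuclear receptors and itself an oestrogen target, was the largest change (log2 fold change 0.66 ± 0.035, adjusted p = 2.7e-37). Rarg, the third RAR gene, was higher at 12.8 ± 0.721 CPM with E2 against 11.1 ± 1.06 with vehicle, with overlapping libraries (0.21 ± 0.074, adjusted p = 0.0164). The Rarg call was lost with DESeq2 (adjusted p = 0.0706) and without E2 replicate 3 (0.115) or vehicle replicate 1 (0.173). Rxra, a partner of all RARs, was lower at 76.3 ± 0.635 CPM with E2 against 84.4 ± 1.02 with vehicle (-0.15 ± 0.030, adjusted p = 3.3e-05), as was the coactivator gene Ncoa1 (-0.076 ± 0.030, adjusted p = 0.0396). Ncoa1 did not pass with DESeq2 (adjusted p = 0.127) or without BMP2 replicate 1 (0.05004), E2 replicate 2 (0.292), E2 replicate 3 (0.213), vehicle replicate 1 (0.196) or vehicle replicate 2 (0.0582). With BMP2 0 of the 10 passed by edgeR (13.7% of all genes did), 0 had an unadjusted p under 0.05, and DESeq2 called 0.

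Among 26 genes listed as retinoic acid targets, not all of them established as induced by it, 22 were tested. For E2 against vehicle 6 were lower, 2 were higher and 14 missed the threshold (36.4% called, against 32.3% of all genes). DESeq2 called 7. The median log2 fold change of the 22 was -0.14 against -0.0026 for all genes, a description and no test. This list does not hold every target: Rarb, with its printed element, and Dhrs3 were counted elsewhere. With E2 Dhrs3 was higher and Rarb did not pass. Stra8, the retinoic acid response gene of premeiotic germ cells, stood at 8.96, 8.86 and 7.67 CPM with BMP2, at 6.27, 6.32 and 7.65 CPM with E2, and at 8.28, 7.88 and 9.27 CPM with vehicle. Its E2 libraries lay below all others (log2 fold change -0.33 ± 0.090 against vehicle, adjusted p = 0.0021). Rec8, a meiotic cohesin gene, stood at 18.8 ± 1.07 CPM with E2 and 25.0 ± 0.647 with vehicle (-0.41 ± 0.055, adjusted p = 9.5e-11). Of the 6 germ cell markers, 4 were higher with E2 than with vehicle and 2 did not pass, where 15.8% of all genes were higher. With BMP2 4 were also higher and 2 did not pass, where 6.84% of all genes were higher. The bearing of these markers on Stra8 and Rec8 was not tested. Whether germ cells of these ovaries, collected at E16 and cultured for 24 hours, were still premeiotic was not tested either.

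Outside these meiotic genes, Tgm2, a transglutaminase, stood at 112.5 ± 4.30 CPM with E2 and 139.5 ± 2.65 with vehicle (-0.31 ± 0.026, adjusted p = 2.3e-20). Rarres2, which encodes the secreted protein chemerin, and Tshz1, a zinc finger gene, also fell, by -0.27 ± 0.069 (adjusted p = 8.7e-04) and -0.24 ± 0.031 (adjusted p = 1.9e-11). Rarres1 rose, at 1.64 ± 0.368 CPM with E2 against 0.647 ± 0.109 with vehicle (1.33 ± 0.24, adjusted p = 2.1e-06). The other two called were Zfp703 (0.12) and Nr2f2 (-0.099), named after their values were seen. Zfp703 did not pass without E2 replicate 3 (adjusted p = 0.0541), and Nr2f2 did not pass with DESeq2 (0.145) or without BMP2 replicate 1 (0.0580), BMP2 replicate 3 (0.0558), E2 replicate 1 (0.366), E2 replicate 2 (0.149), vehicle replicate 2 (0.0993) or vehicle replicate 3 (0.161). With BMP2 0 of the 22 passed by edgeR (13.7% of all genes did), 3 had an unadjusted p under 0.05, and DESeq2 called 0. With this few genes that share is a description and no test. For BMP2 against E2, 6 were higher and 2 lower with BMP2 (36.4% called, against 28.2% of all genes).

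**Figure D4:**
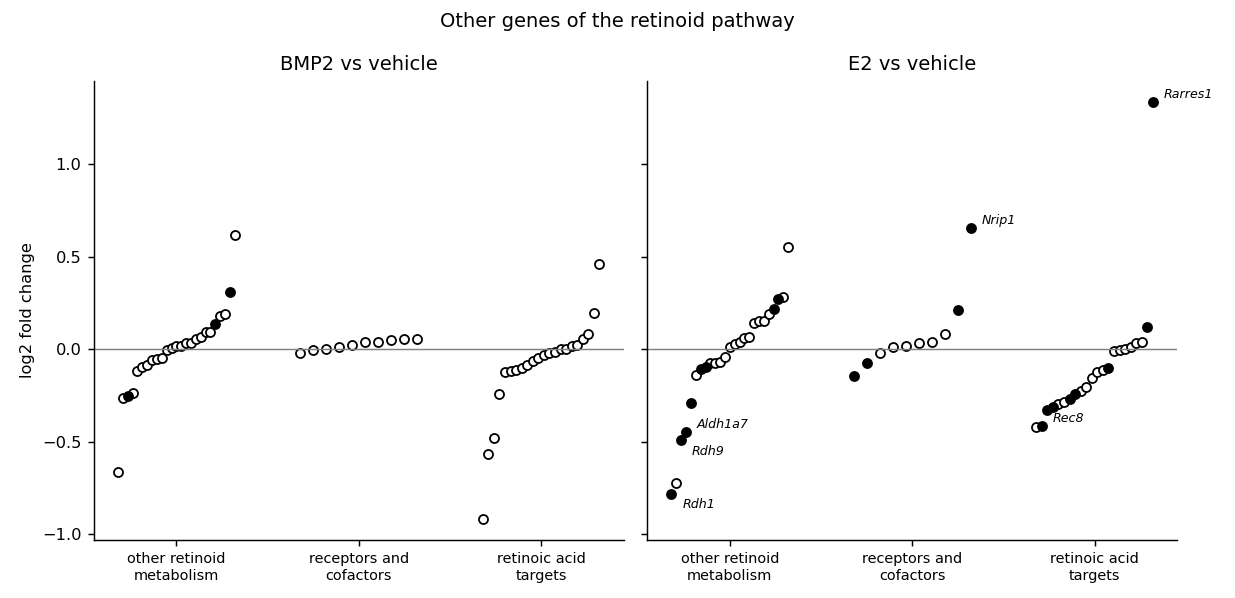
Log2 fold changes (vertical axis) of the other tested genes of the pathway, in 3 lists (horizontal axis, sorted within each list), for BMP2 against vehicle (left) and E2 against vehicle (right); filled points passed at an adjusted p under 0.05, and called genes beyond 0.4 in size are named. With E2 2 of 25, 2 of 10 and 2 of 22 genes rose and 6, 2 and 6 fell; with BMP2 3 genes of the first list passed.

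The genes whose pattern over the 9 libraries was most like that of Stra6 were Bai2, an adhesion receptor gene, and Fmod, which encodes the matrix proteoglycan fibromodulin. Their log2 CPM, centred on each gene's mean, differed from that of Stra6 by a root mean square of 0.044 for both. Bai2 averaged 71.9 CPM with BMP2, 54.0 with E2 and 80.7 with vehicle, and Fmod 10.1, 7.94 and 12 CPM in the same groups. For Crabp1 the nearest were Prss35, a serine protease family gene (root mean square 0.091), and Apoc1, an apolipoprotein gene (0.092). Prss35 averaged 71.7 CPM with BMP2, 42.2 with E2 and 74.5 with vehicle, and Apoc1 17.7, 10.4 and 17.5 CPM. No other of the 9 genes was called at 1.5-fold or more in any comparison, so no nearest genes were sought for them.

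Across the 9 genes, the BMP2 and vehicle libraries did not overlap for 3 (Stra6, Aldh1a1 and Aldh1a2), as for 28% of all genes tested. The E2 and vehicle libraries did not overlap for 5, as for 41.2% of all genes, and the BMP2 and E2 libraries for 6, as for 39.6%. Rbp4, Crabp2 and Cyp26b1 passed in no comparison, and the counts behind Rbp4 and Cyp26b1 were the lowest of the 9.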

How the data were processed

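The authors deposited 1 table of raw read counts by gene for each of the 9 libraries, with no normalization. Tools listed in the submitters' processing notes are TopHat2, HTSeq and DESeq2, with mm10 as the build and no versions. Which annotation HTSeq read, and whether it used strand, is not given in the sources used here. The 38.2% to 39.7% of a library in rows that name no gene stayed out.

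Counts were tested with edgeR 4.0.16 (R 4.3.3): filterByExpr (minimum count 10, minimum total 15) left 16360 of 23420 genes, TMM factors scaled the libraries, and 1 robust quasi-likelihood model of 3 group means was fitted to all 9 libraries. Benjamini-Hochberg adjustment ran over all genes tested. Standard errors are the log2 fold change over the root of F, and levels are CPM with the SD over 3 libraries. DESeq2 1.42.0 and other settings were tried, and the scripts were tested on simulated counts. Members, lists and tests were chosen with earlier results of these data known. Named by rule were the 9 genes, up to 6 called genes per list and comparison with vehicle with a mean CPM of at least 1, and the 2 nearest patterns for genes called at 1.5-fold. Of 73 entries in the 3 other retinoid lists, 72 were found, Bco1 and Rbpr2 under the symbols Bcmo1 and 1300002K09Rik. The values of 1 list gene are not reported here. GENCODE vM21 (GRCm38, the same assembly as mm10) gave exons, lengths and coordinates.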

Additional observations from a re-analysis of the deposited data

How the results depend on the processing

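Of 486 recomputed values (27 gene results under 18 settings), 464 kept direction and side of the threshold, 13 kept direction but lost the call and 9 changed sign. The calls lost were those of Aldh1a2 and Stra6 for BMP2 against vehicle, Aldh1a3 for E2 against vehicle and Rarb for BMP2 against E2. The sign changes came from leaving out 1 library and concern genes that passed under no setting. For BMP2 against vehicle, the log2 fold change of Rbp4 then ran from -0.048 to 0.22 (-0.044 without BMP2 replicate 3, -0.048 without vehicle replicate 3) and that of Cyp26b1 from -0.038 (without vehicle replicate 2) to 0.24. For E2 against vehicle, Crabp2 ran from -0.0024 (without E2 replicate 3) to 0.21, Rbp4 from -0.059 (without vehicle replicate 3) to 0.18 and Cyp26b1 from -0.22 to 0.057 (without vehicle replicate 3). For BMP2 against E2, Rbp4 ran from -0.10 to 0.16 (-0.040 without BMP2 replicate 1, -0.10 without BMP2 replicate 3, -0.038 without E2 replicate 2). The cause was not tested. The 2 of 9 genes called for BMP2 against vehicle became 1 at an adjusted p under 0.01 and 0 against a 1.2-fold change, and 1 to 2 when a library was left out. Against a 1.2-fold change the other retinoid genes called numbered 0 for BMP2 against vehicle, 5 for E2 against vehicle and 4 for BMP2 against E2, against 3, 20 and 19. When a library was left out they numbered 2 to 5 (5 without vehicle replicate 2), 16 to 20 and 16 to 22. With the replicate number as a block, the members called stayed at 2, 5 and 5, and the other retinoid genes called were 4, 21 and 21. The share of all genes called was not computed under these settings or with DESeq2, so these counts stand without a background. Same-numbered libraries deviated together little (correlations -0.0311 to 0.0271), so the numbers were not taken to pair libraries. The counts of 49 to 87 per library limit Rbp4 and Cyp26b1.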
